A study of Bos taurus with 12 samples.

Results

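The 10 genes described here encode fatty acid desaturases and the enzymes of microsomal chain elongation: FADS1, FADS2, FADS6 and SCD, the elongases ELOVL1, ELOVL2 and ELOVL5, and HSD17B12, HACD3 and TECR. They were chosen by symbol, matched through the bovine RefSeq gene table to the Entrez gene IDs of the count files, and all 10 were found among the 30336 genes of those files. All 10 also passed the filter on low counts, among 13212 genes that were tested. The RNA came from liver biopsies of 12 Holstein heifer calves at 4 d of age. In the CON group the dams had received the control close-up ration of 1.47 Mcal/kg DM and 15.3% CP, with no added methionine, from 28 ± 2 d before calving until calving, and in the MET group they had received that ration plus ethyl-cellulose rumen-protected methionine. The comparison asked whether methionine supply to the cow in late pregnancy altered hepatic expression in her newborn calf. Each diet had 6 libraries with 8277789 to 10397604 counted reads. All of them ran on 1 lane, but the first index differed by diet, which leaves the index confounded with diet: they cannot be told apart.

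In a comparison of raw counts, CON replicates 1 and 4 were nearly as close as counting noise allows, with a chi-square per gene of 1.33, and so were MET replicates 1 and 3 with 1.24, whereas the other 64 pairs of the 12 libraries had values of 25.1 to 133. MET replicate 5 stood apart from the rest, with 52.0 to 133 in its 11 pairs against 25.1 to 82.1 in the other 53. MET replicate 4 came next, with 48.3 to 82.1 in its pairs, and pairs with neither of these libraries reached at most 54.8. Each of the near-identical pairs was counted as 1 sample, and means ± SD below are over 5 samples per diet. Tests across genes were run over the 12 libraries and again over the 10 samples with the reads of a pair summed, and correlations and ratios are over the 10 samples. The calves are described as separate animals, yet with such pairs in the data the p-values measure only the spread between these samples. The hepatocyte markers ALB, APOA1, TTR, SERPINA1, HNF4A and CPS1 were all abundant and summed to 43365 to 89423 CPM (counts scaled to a common library total after TMM normalization), while ADIPOQ and LEP of fat and ACTA1, CKM and MYH2 of muscle had 0 reads in all libraries. The other listed fat markers PLIN1, CIDEC and FABP4 were present at mean levels of 1.05 to 2.47 CPM. MYH1, MYH7 and TNNT3 of muscle had at most 2 reads in any library. In bulk tissue, fewer cells of a type and less RNA per cell cannot be told apart.

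Dietary linoleic and alpha-linolenic acids are turned into long-chain polyunsaturated fatty acids in the liver by alternate desaturation and elongation. FADS2, the delta-6 desaturase, performs the first desaturation and FADS1, the delta-5 desaturase, a later one, with elongation by ELOVL5 and ELOVL2 before and after. Each round of elongation has a condensation step by an ELOVL enzyme, followed by a first reduction (HSD17B12), a dehydration (HACD3) and a second reduction (TECR). SCD, the delta-9 desaturase, acts on saturated fatty acids and makes oleic and palmitoleic acid, and several of these genes are known targets of SREBP-1 and of PPAR-alpha.

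Over the 12 libraries, FADS2 was the 1 gene of the 10 that differed between the maternal diets at a false discovery rate (FDR) of 0.10. The FDR is the Benjamini-Hochberg adjusted p over all genes tested. In the fit over 10 samples with near-identical libraries summed, the FADS2 level in MET calves was 0.249 of that in CON calves. There its edgeR FDR was 0.175. FADS1 and ELOVL5, which belong to the same polyunsaturated route, had lower means in MET but did not pass the FDR, and the remaining 7 genes had log2 fold changes between -0.16 and 0.23 over the 12 libraries and between -0.31 and 0.09 over the 10 samples. Over the 12 libraries, 583 of 13212 genes passed FDR 0.10 in edgeR's quasi-likelihood test, a share of 4.41% in either direction and of 2.32% in the lower direction. When the pairs were summed, no gene passed (0%), and the lowest FDR of any gene was 0.155, so that none of the 10 members passed either. DESeq2 on the same 10 samples called 624 genes, which is 4.72%, and of the members it called FADS2.

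**Figure D1:**
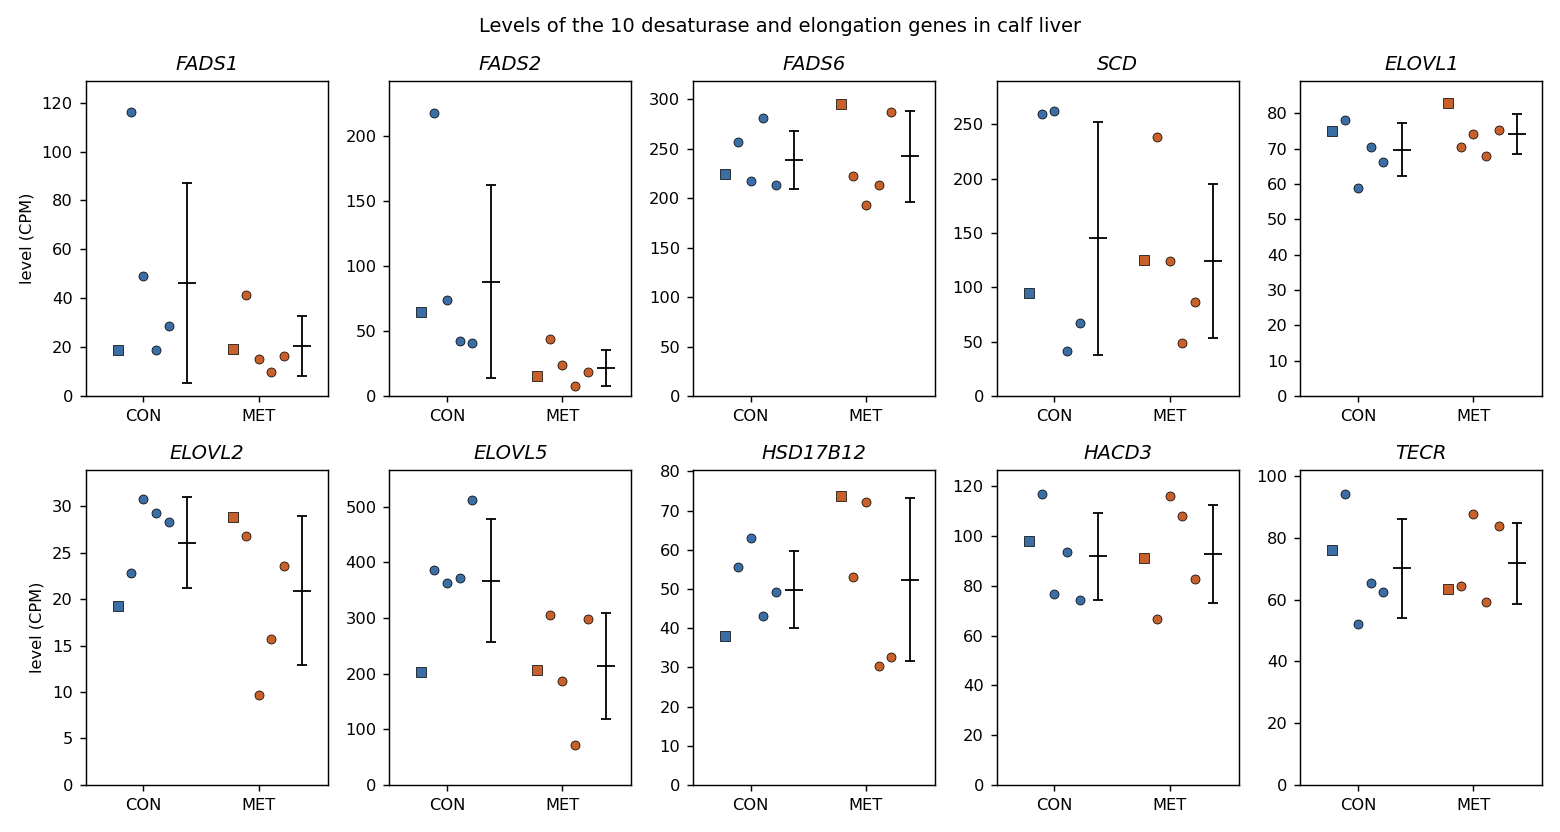
Level of each of the 10 genes in every sample, in CPM, for CON (blue) and MET (orange); squares are the mean of a pair of near-identical libraries, circles are single libraries, and bars give the mean ± SD of 5 samples. FADS2 stood at 41.1 to 218 CPM in CON and at 7.48 to 44.0 CPM in MET, with 4 of 5 MET samples below the lowest CON sample, and the ranges of the diets overlapped for all 10 genes.

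FADS2 (Entrez 521822) lies on chromosome 29 at 41045232 to 41082249 on the plus strand of UMD 3.1.1. In CON it stood at 64.7 CPM in the sample of replicates 1 and 4, 218 CPM in replicate 2, 73.6 CPM in replicate 3, 42.7 CPM in replicate 5 and 41.1 CPM in replicate 6. In MET it stood at 15.4 CPM in the sample of replicates 1 and 3, 44.0 CPM in replicate 2, 23.9 CPM in replicate 4, 7.48 CPM in replicate 5 and 18.8 CPM in replicate 6. Thus 4 of the 5 MET samples were below the lowest CON sample, and MET replicate 2 lay just above CON replicates 5 and 6. The means were 88.0 ± 74.0 CPM in CON and 21.9 ± 13.7 CPM in MET (SD, n = 5). Over the 12 libraries the log2 fold change was -2.01 (SE 0.458, 95% confidence interval -2.99 to -1.03), with an edgeR FDR of 0.0635. Over the 10 samples it was -2.0 (confidence interval -3.16 to -0.85) with an edgeR FDR of 0.175, and the two-sided exact permutation p of the 10 samples was 0.0238. The same 10 samples gave an FDR of 0.0402 in DESeq2.

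CON replicate 2 had the highest FADS2 level of all samples. Without that sample the log2 fold change over the remaining samples was -1.35, with an edgeR FDR of 0.227. Over the 12 libraries it was -1.46 without CON replicate 2 and still passed, with an edgeR FDR of 0.0748, but the call was lost when CON replicate 1, CON replicate 4, MET replicate 1 or MET replicate 6 was left out, with edgeR FDR of 0.101 to 0.112. Without MET replicate 5, which stood apart over all genes, FADS2 had a log2 fold change of -1.84 (edgeR FDR of 0.0933), and -1.79 with the pairs summed (edgeR FDR of 0.255). The direction was lower in MET in each of those fits. The summed level of the hepatocyte markers, of which ALB alone made up 66.1 to 81.5%, was 52654 to 89423 CPM in CON (median 81774) and 43365 to 69722 CPM in MET (median 48474), with a two-sided exact permutation p of 0.0397 over the 10 samples. None of the 6 passed FDR 0.10 in edgeR, and ALB was nearest with a log2 fold change of -0.65 and an edgeR FDR of 0.107. DESeq2 called ALB in both fits (FDR of 0.0106 with 12 libraries, 0.0498 with 10 samples). The other 5 markers, with log2 fold changes of -0.32 to 0.07 over the 12 libraries, summed to 13544 to 18201 CPM in CON and 9926 to 18438 CPM in MET (exact permutation p of 0.31). Counted against the reads of these 6 markers, FADS2 had 460 to 2667 reads per 1000000 marker reads in CON (median 745) and 163 to 1016 in MET (median 270). On this scale the log2 difference was -1.39, the exact permutation p was 0.0794, and 3 of 5 MET samples were below the lowest CON sample. Against the reads of the 5 markers without ALB, the log2 difference of FADS2 was -1.73 with an exact permutation p of 0.0397. That choice was made after these values were seen, so this p is a description and not a test. Against each of the 6 markers alone the log2 difference of FADS2 lay between -1.90 (TTR) and -1.28 (ALB). Summed macrophage markers stood at 713 to 1046 CPM in CON and 810 to 1107 CPM in MET (exact permutation p of 0.222), and their part in the FADS2 difference was not tested. The sums were 41.5 to 67.9 CPM in CON and 23.7 to 61.5 CPM in MET for cholangiocyte markers, 538 to 845 and 411 to 733 CPM for stellate and fibroblast markers, 173 to 349 and 163 to 351 CPM for endothelial markers, 7.51 to 957 and 56.5 to 458 CPM for erythroid markers, and at most 7.36 CPM for fat markers and 0.312 CPM for muscle markers. The largest fold changes of these groups over the 12 libraries were those of EPCAM (-0.26 on the log2 scale), CD68 of macrophages (0.39), COL3A1 (-0.29), STAB2 (-0.24), HBB (-0.47) and CIDEC (-0.72). With 1 library left out, that of HBB lay between -0.86 and 0.34 and turned positive without CON replicate 2. That of CIDEC stayed negative, between -1.40 and -0.29, but its levels were low, at 0 to 3.68 CPM in CON and 0 to 3.09 CPM in MET. No listed marker of any group passed FDR 0.10 in edgeR. AIF1, a macrophage marker outside the list, did so over the 12 libraries (log2 fold change 0.46, edgeR FDR of 0.0571) but not over the 10 samples (0.173). Over the 12 libraries all 5 listed macrophage markers had positive log2 fold changes, and all 4 stellate and fibroblast markers negative ones. Of the listed markers other than ALB, DESeq2 called CD68 (FDR of 0.0438) and C1QA (FDR of 0.0915) over the 12 libraries and none over the 10 samples.

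FADS1 (Entrez 533107) is the head-to-head neighbour of FADS2, at 40938871 to 41046026 on the minus strand of chromosome 29. The annotated spans of the genes share 795 bases, but no exon of either overlaps an exon of another gene, and reads were counted by strand. In CON it had 18.8 CPM in replicates 1 and 4, 116 CPM in replicate 2, 49.0 CPM in replicate 3, 18.7 CPM in replicate 5 and 28.8 CPM in replicate 6. In MET it had 19.4 CPM in replicates 1 and 3, 41.3 CPM in replicate 2, 15.2 CPM in replicate 4, 9.72 CPM in replicate 5 and 16.4 CPM in replicate 6. The diets overlapped, since 3 MET samples were below the lowest CON sample and 2 CON samples were above the highest MET sample. The means were 46.2 ± 40.7 and 20.4 ± 12.2 CPM (SD, n = 5). The log2 fold change was -1.03 (SE 0.473) over the 12 libraries with an edgeR FDR of 0.235, and -1.17 (confidence interval -2.31 to -0.027) over the 10 samples with an edgeR FDR of 0.297 and an exact permutation p of 0.151. Much of this rested on CON replicate 2, without which the log2 fold change of the 10 samples came down to -0.49. It was -0.99 without MET replicate 5. FADS2B, annotated as a FADS2 relative on chromosome 15, had 0 reads in all 12 libraries.

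Among the 3 elongases only ELOVL5 had an interval that stayed below 0. ELOVL5 (Entrez 617293, chromosome 23), which elongates polyunsaturated fatty acids between the FADS2 and FADS1 steps, had 203 CPM in CON replicates 1 and 4, 386 CPM in replicate 2, 362 CPM in replicate 3, 372 CPM in replicate 5 and 512 CPM in replicate 6. In MET it had 207 CPM in replicates 1 and 3, 306 CPM in replicate 2, 186 CPM in replicate 4, 71.1 CPM in replicate 5 and 298 CPM in replicate 6. The 4 CON samples other than the pair lay above every MET sample, and the pair itself lay among the MET samples. The means were 367 ± 110 CPM in CON and 214 ± 95.9 CPM in MET (SD, n = 5). The log2 fold change was -0.68 (SE 0.311) over the 12 libraries with an edgeR FDR of 0.238, and -0.78 (confidence interval -1.53 to -0.03) over the 10 samples with an edgeR FDR of 0.292 and an exact permutation p of 0.0556. Without MET replicate 5, the lowest sample, it was -0.56 over the remaining samples (edgeR FDR of 0.338).

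By unadjusted p at most 0.05, the members with a difference were FADS1, FADS2 and ELOVL5, which is 3 of 10 in either fit. Of all genes tested, 20.5% met that threshold over the 12 libraries and 16.4% over the 10 samples, so the 3 members stand against a background in which such p-values were common. No member had diets that did not overlap, against 3.71% of all genes tested. The median log2 fold change of the 10 members was -0.07 over the 12 libraries, and that of all genes was -0.003.

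**Figure D2:**
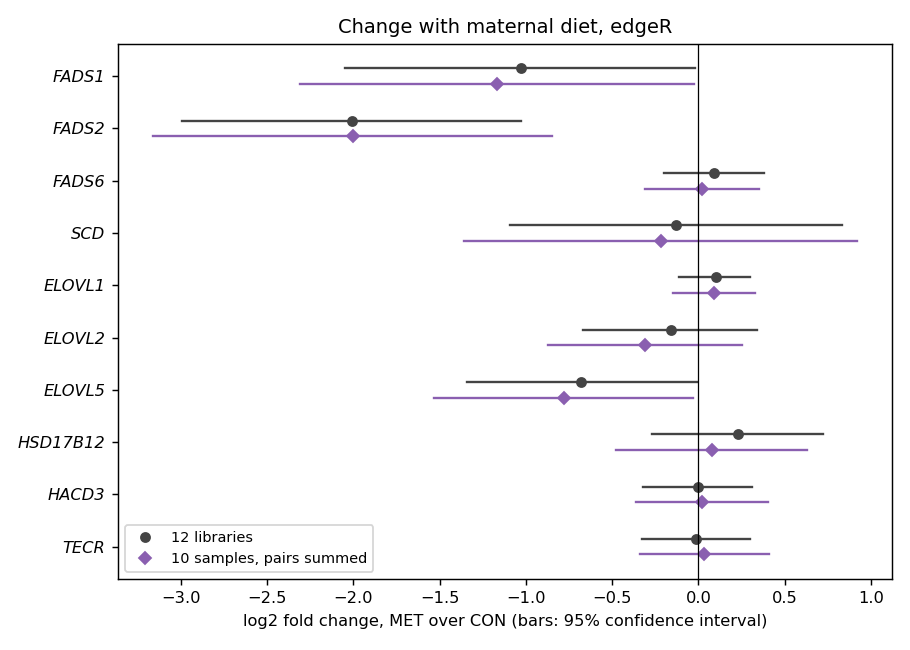
Log2 fold change of MET over CON for each gene, with bars for the 95% confidence interval, over 12 libraries (circles) and over 10 samples with the pairs summed (diamonds). FADS2 lies at -2.01 and -2.0, and the intervals of FADS6, SCD, ELOVL1, ELOVL2, HSD17B12, HACD3 and TECR include 0 in both fits.

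ELOVL2 (Entrez 615756, chromosome 23), which acts on the longest polyunsaturated chains, stood at 19.3 to 30.8 CPM in CON and 9.65 to 28.9 CPM in MET. Its lowest sample was MET replicate 4 and its next lowest MET replicate 5 at 15.7 CPM. The log2 fold change was -0.31 over the 10 samples (confidence interval -0.87 to 0.25, edgeR FDR of 0.579) and -0.16 over the 12 libraries (edgeR FDR of 0.735). ELOVL1 (Entrez 540348, chromosome 3), which extends saturated and monounsaturated very-long-chain fatty acids, was the steadiest member, at 59.0 to 78.0 CPM in CON and 67.9 to 82.9 CPM in MET. Its coefficient of variation was 10.8% in CON and 7.69% in MET, and its log2 fold change over the 10 samples was 0.09 (confidence interval -0.15 to 0.33, edgeR FDR of 0.725), the narrowest interval of the 10 members. Its log2 fold change was 0.10 with all 12 libraries (edgeR FDR of 0.592).

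Of the desaturases outside the polyunsaturated route, SCD (Entrez 280924, at 21137945 to 21148317 on the minus strand of chromosome 26) varied among calves far more than between diets. In CON it had 94.8 CPM in replicates 1 and 4, 259 CPM in replicate 2, 262 CPM in replicate 3, 41.6 CPM in replicate 5 and 67.2 CPM in replicate 6. In MET it had 125 CPM in replicates 1 and 3, 238 CPM in replicate 2, 124 CPM in replicate 4, 48.7 CPM in replicate 5 and 86.2 CPM in replicate 6. Both diets thus held calves with low and calves with high levels, and the lowest and highest CON samples differed by 6.29-fold. The means were 145 ± 107 and 124 ± 70.7 CPM (SD, n = 5), and the log2 fold change over the 10 samples was -0.22 with an interval of -1.36 to 0.92 (edgeR FDR of 0.871), which includes the change fitted for FADS1. The value with all 12 libraries was -0.13 (edgeR FDR of 0.9). FADS6 (Entrez 523867, chromosome 19), a member of the desaturase family whose substrate is not settled, ranged from 213 to 281 CPM in CON and from 193 to 295 CPM in MET. Its log2 fold change was 0.02 over the 10 samples (confidence interval -0.31 to 0.35, edgeR FDR of 0.959) and 0.09 over the 12 libraries (edgeR FDR of 0.747).

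The 3 enzymes that complete each elongation cycle did not differ detectably. HSD17B12 (Entrez 789567, chromosome 15), the 3-ketoacyl-CoA reductase, stood at 38.1 to 62.9 CPM in CON and 30.4 to 73.7 CPM in MET, where the pair of replicates 1 and 3 stood at 73.7 CPM and replicate 4 at 72.2 CPM, but replicates 5 and 6 at 30.4 and 32.6 CPM. Its SD was 9.85 CPM in CON and 20.7 CPM in MET. HACD3 (Entrez 100125237, chromosome 10), a 3-hydroxyacyl-CoA dehydratase, stood at 74.2 to 117 CPM in CON and 66.8 to 116 CPM in MET. TECR (Entrez 614105, chromosome 7), the trans-2-enoyl-CoA reductase of the last step, stood at 52.1 to 94.2 CPM in CON and 59.3 to 87.7 CPM in MET. The log2 fold changes over the 10 samples were 0.08, 0.02 and 0.03 in that order, with confidence intervals of -0.48 to 0.63, -0.36 to 0.40 and -0.34 to 0.41. The edgeR FDR of these genes was at least 0.912 over the 10 samples. With all 12 libraries HSD17B12 had a log2 fold change of 0.23 with an edgeR FDR of 0.619, and HACD3 and TECR had FDR of 0.997 and 0.97.

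Levels were ordered between genes only per length, as CPM per kb of annotated exon. In CON livers FADS6 stood highest with a mean of 178 ± 21.9 CPM per kb, then ELOVL5 with 132 ± 39.7, TECR with 61.6 ± 14.1, SCD with 31.2 ± 23.1 and FADS2 with 28.8 ± 24.2 CPM per kb (SD, n = 5). HACD3, ELOVL2, ELOVL1 and HSD17B12 followed with means of 26.9 to 17.2 CPM per kb, and FADS1 was lowest with 10.9 ± 9.59 CPM per kb. Each neighbour in this order overlapped the next in range. In MET livers FADS6 (180 ± 34.6 CPM per kb) was above ELOVL5 (77.1 ± 34.6 CPM per kb) without overlap, and TECR (63.0 ± 11.5 CPM per kb) was above HACD3 (27.2 ± 5.78 CPM per kb) without overlap. FADS2, the fifth in CON, was the ninth in MET with 7.17 ± 4.49 CPM per kb, just above FADS1 with 4.81 ± 2.88 CPM per kb. Exon lengths are those of the annotation, so this order depends on the transcripts that liver uses.

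Some samples were extreme for several members at once. CON replicate 2 was the highest of the 10 samples for FADS1, FADS2, HACD3 and TECR, and MET replicate 5 the lowest for FADS1, FADS2, ELOVL5 and HSD17B12. Without MET replicate 5 the log2 fold change of HSD17B12 was 0.22 with the pairs summed (edgeR FDR of 0.693). With each diet mean removed, FADS2 followed FADS1 among the 10 samples with Pearson's r = 0.878 (exact permutation p = 0.00333, adjusted over the 9 relations 0.015) and Spearman's rho = 0.758 (exact permutation p = 0.0181, adjusted 0.0816). It followed SCD with r = 0.846 (exact permutation p = 0.00278, adjusted 0.015) and rho = 0.794 (exact permutation p = 0.0133, adjusted 0.0816). Without MET replicate 5 and CON replicate 2, the samples farthest from the median of FADS2, r was 0.662 with FADS1 and 0.756 with SCD. Among 8196 genes with a mean of at least 10 CPM, FADS1 ranked 7 and SCD ranked 13 by r with FADS2. For ELOVL5 r was 0.472 and turned to -0.06 without those samples, and for the other 6 members r lay between -0.00068 and 0.531 with adjusted exact permutation p of at least 0.43. Without those samples r also turned negative for TECR (-0.206), ELOVL1 (-0.542), FADS6 (-0.58) and HACD3 (-0.372).

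FADS2 was also read within each library, which needs no scaling between libraries. It was taken for this after its values were seen, and its reads were divided by those of each of the 9 other members. Per read of SCD, FADS2 had 0.684 reads in CON replicates 1 and 4, 0.842 in replicate 2, 0.281 in replicate 3, 1.02 in replicate 5 and 0.612 in replicate 6. In MET it had 0.123 reads per SCD read in replicates 1 and 3, 0.185 in replicate 2, 0.193 in replicate 4, 0.154 in replicate 5 and 0.218 in replicate 6. All 5 MET samples were below all 5 CON samples, with a log2 difference of -1.88. FADS2 per read of HSD17B12 was the other ratio of the 9 without overlap. Of 13169 tested genes with a read in every sample, 25% gave a FADS2 ratio without overlap, so a count of 2 in 9 is near the background.

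Per read of FADS1, FADS2 had 3.43 reads in CON replicates 1 and 4, 1.89 in replicate 2, 1.5 in replicate 3, 2.28 in replicate 5 and 1.43 in replicate 6. In MET it had 0.791 reads per FADS1 read in replicates 1 and 3, 1.07 in replicate 2, 1.58 in replicate 4, 0.77 in replicate 5 and 1.15 in replicate 6. Thus 4 of 5 MET samples were below the lowest CON sample, with a log2 difference of -0.95 that stayed between -1.10 and -0.75 with each sample left out in turn. The ratios to FADS6, ELOVL1, HACD3 and TECR also had 4 of 5 MET samples below the lowest CON sample, that to ELOVL2 had 3 and that to ELOVL5 had 2. Since FADS2 was taken for its low level in MET, these ratios are a description without a test.

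**Figure D3:**
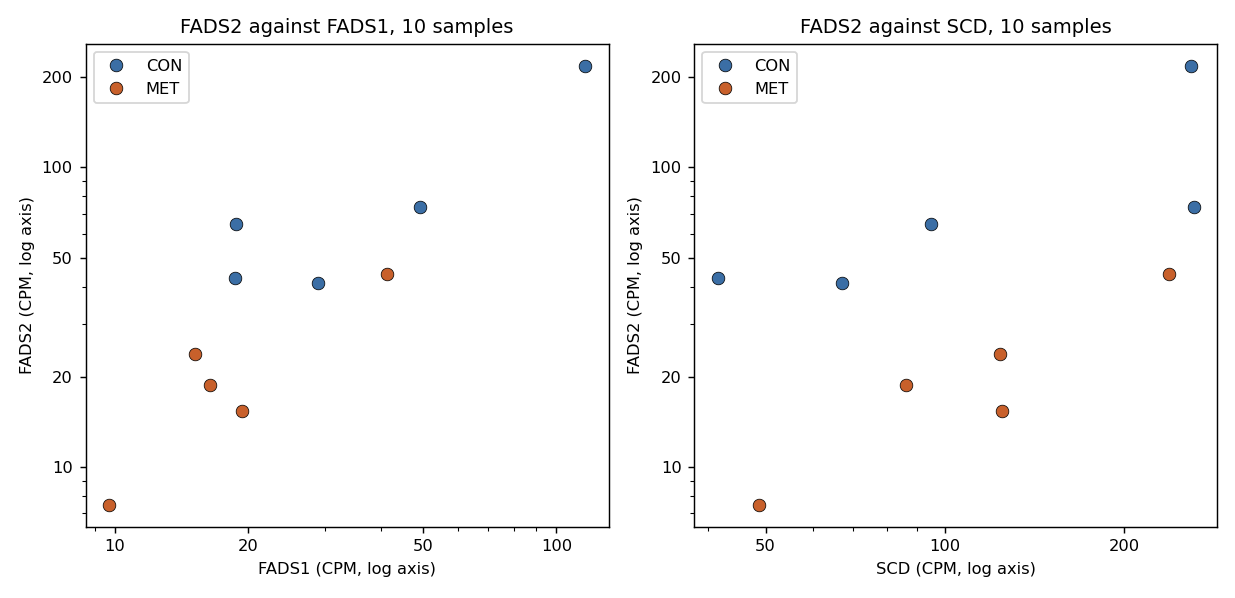
FADS2 against FADS1 (left) and against SCD (right) in the 10 samples, all in CPM on log axes, with CON in blue and MET in orange. Within each diet FADS2 tended to be higher in the samples with more FADS1 or SCD, and in the right panel all 5 MET samples had fewer FADS2 reads per SCD read (0.123 to 0.218) than any CON sample (0.281 to 1.02).

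A further 55 genes of long-chain fatty acid metabolism were listed by role, and 48 passed the filter. Over the 12 libraries, 5 of the 48 passed FDR 0.10 and all were lower in MET (10.4%, against 4.41% of all genes), whereas 0 passed over the 10 samples in edgeR and 6 passed there in DESeq2. In the fit of the 10 samples, 7 lower and 2 higher genes had p at most 0.05 before adjustment, which is 18.8% and near the 16.4% of all genes. The median log2 fold change of the list was -0.10. None of these genes passed in the higher direction in edgeR.

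Of the 9 genes tested of peroxisomal chain shortening, the last stage in making docosahexaenoic acid, 2 passed and both were lower in MET. SCP2, the peroxisomal thiolase and sterol carrier protein, stood at 607 ± 77.9 CPM in CON and 337 ± 61.2 CPM in MET (SD, n = 5), and all 5 MET samples (240 to 390 CPM) were below all 5 CON samples (505 to 691 CPM). Its log2 fold change was -0.84 (SE 0.135, edgeR FDR of 0.0381), and -0.85 with an FDR of 0.155 over the 10 samples. Of the 5 electron donor genes tested, CYB5A, the microsomal cytochrome b5 that passes electrons to desaturases, was lower with 551 ± 53.1 CPM against 794 ± 160 CPM, a log2 fold change of -0.56 (edgeR FDR of 0.0693, and 0.183 over the 10 samples). With 1 library left out, SCP2 passed in 12 of 12 fits and CYB5A in 9, being lost without CON replicate 1, CON replicate 4 or MET replicate 1.

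Among the 13 genes of transcriptional control, PPARA and INSIG2 passed over the 12 libraries. PPARA, the nuclear receptor for fatty acids, stood at 17.9 ± 1.57 CPM in CON and 13.1 ± 2.00 CPM in MET, a log2 fold change of -0.42 (edgeR FDR of 0.0849, and 0.178 over the 10 samples). INSIG2, which retains the SREBP-SCAP complex in the endoplasmic reticulum, stood at 32.1 ± 1.11 and 23.4 ± 3 CPM, a log2 fold change of -0.43 (edgeR FDR of 0.0582, and 0.173 over the 10 samples). For both genes no MET sample reached the lowest CON sample. With 1 library left out, the PPARA call held in 2 of 12 fits (those without CON replicate 2 or CON replicate 5) with edgeR FDR up to 0.151, and the INSIG2 call held in 10, being lost without CON replicate 1 or CON replicate 4. SREBF1, which encodes SREBP-1, had the largest fold change of this group with 79.0 ± 20.5 CPM in CON and 116 ± 29.2 CPM in MET (log2 fold change 0.64), but with an edgeR FDR of 0.103, and 0.242 over the 10 samples, it did not pass. DESeq2 called it over the 12 libraries (FDR of 0.0344) and not over the 10 samples (FDR of 0.159).

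In the other role groups no gene passed FDR 0.10 in edgeR. Of the relatives of the members, ELOVL7 had the largest fold change with 36.7 ± 13.1 CPM in CON and 18.2 ± 10.8 CPM in MET (log2 fold change -1.01, edgeR FDR of 0.106, and 0.22 over the 10 samples), and DESeq2 called it in both fits (FDR of 0.0299 with 12 libraries, 0.0985 with 10 samples). Of the genes of acyl activation and binding, SLC27A2, a very-long-chain acyl-CoA synthetase, had a log2 fold change of -1.41 with an edgeR FDR of 0.183, and of -1.09 with 0.402 over the 10 samples. Of the genes that place acyl chains in phospholipid, LCLAT1 had a log2 fold change of 0.56 with an edgeR FDR of 0.178, and of 0.54 with 0.309 over the 10 samples. FADS3, ELOVL3, ELOVL4, HACD4, CYB5R2, ABCD2 and LPCAT2 were below the filter, with at most 24 reads in any library.

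**Figure D4:**
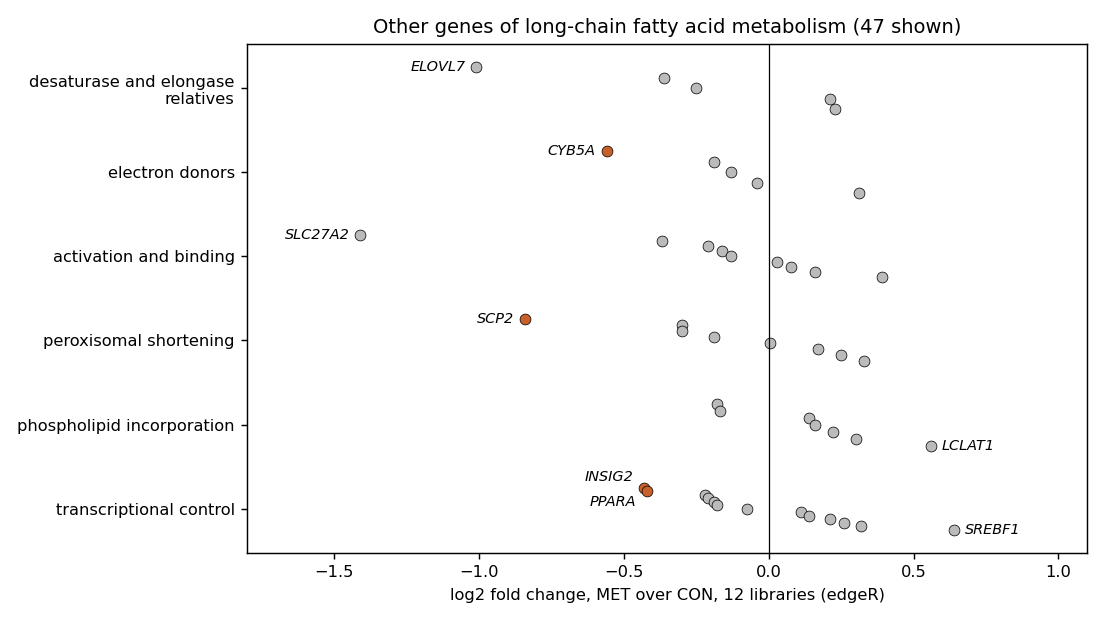
Log2 fold change of MET over CON (x axis, 12 libraries) for 47 of the 48 tested genes of long-chain fatty acid metabolism outside the 10 members, by role; orange marks FDR at most 0.10 and grey the rest, and the genes called and the largest change of each role are named. The 4 called genes shown, SCP2, CYB5A, INSIG2 and PPARA, all lie below 0, between -0.84 and -0.42.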

How the data were processed

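The authors sequenced stranded mRNA libraries from 1 end of the fragments on 1 lane, aligned the reads to bovine UMD 3.1.1 with STAR 2.5.3a and assigned them to RefSeq genes with featureCounts of Subread 1.5.2. The authors deposited the raw counts of reads per gene, by Entrez gene ID, without normalization. Gene symbols came from a RefSeq gene table of a later assembly, which named 25105 of the 30336 genes. Groups and replicate numbers came from the labels.

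The 21227 genes with a read were filtered by edgeR's default filter (minimum count 10, minimum total count 15), TMM-scaled and tested with edgeR 4.0.16 in R 4.3.3 by the quasi-likelihood test on diet alone, and p was adjusted by Benjamini-Hochberg over the 13212 genes tested. Exact two-sided permutation tests of 1 value at a time used log2 CPM (prior count 2) over 252 arrangements of 10 samples or 924 of 12 libraries. Correlations used 14400 arrangements within diet. In each library 3 reads, the floor used here, equalled 0.289 to 0.362 CPM, and floors cover counting error only.

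The members and lists were chosen with earlier results of these data known. Named were all members, the listed genes and markers past FDR 0.10, the largest fold change of each role and marker group, and the 5 genes most like FADS2. 1 gene that this rule chose is not reported here. Other genes were chosen after their values were seen. Alternatives covered normalization, filter, DESeq2 1.42.0, voom of limma 3.58.1, robust estimation, gene length, a replicate block and left-out libraries. The fits were tested on simulated data. GC content was not tested, since no genome was used here, and no sequences are shown for that reason.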

Additional observations from a re-analysis of the deposited data

Results flagged for a closer look

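FADS2 in CON replicate 2 stood at 218 CPM, far above the other 4 CON samples at 41.1 to 73.6 CPM. Its gap to the nearest of them was 0.816 of the range of the group, above the Dixon critical value of 0.71 for 5 samples. The gap was taken on CPM, and on log2 CPM it is a smaller part of the range. By this test it was the 1 sample that stood apart among the 20 groups tested (10 genes in each of the diets), and chance alone would set apart about 1 in 20. FADS1 was highest in the same sample, at 116 CPM.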

How the results depend on the processing

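Over the 12 libraries 1 member passed FDR 0.10. With the pairs summed to 10 samples 0 passed, as with CON 1 and MET 1 or CON 4 and MET 3 kept of each pair (0 and 0), and with 1 library left out 0 to 1 passed. Of the other pathway genes 5 passed, against 0 with pairs summed, 1 with library size only, 2 with no filter, 3 with the gene length trend removed, 0 and 0 with 1 library kept of each pair, and 1 to 7 with a library left out. Of all genes 583 passed, against 0 with pairs summed, 107 with library size only, 238 with no filter, 1314 by DESeq2, 247 with the length trend removed, 0 and 0 with 1 library kept of each pair, and 26 (without CON replicate 1) to 564 with a library left out. Calls that were higher in MET made up 47.3%, but 66.4% with library size only and 39.8% with upper-quartile factors. With a library left out the share ran from 37.1% (without CON replicate 4) to 54.5% (without MET replicate 3), and with the replicate block it was 0% of 6 calls. At an unadjusted p of 0.05 or less the 10 samples gave 2162 genes in edgeR. Same-numbered libraries of the diets had weakly correlated deviations (correlations -0.19 to 0.148), which cannot show whether the numbers pair calves. No source says that they do. With the replicate block, 1 member, 0 pathway genes and 6 of all genes passed, and FADS2 had an edgeR FDR of 0.0432. That fit counted the libraries of each near-identical pair as separate samples in different blocks. SCD turned positive with voom (0.017) and with the replicate block (0.035), and over left-out libraries it lay between -0.42 and 0.16. HACD3, at -0.0014, turned positive with pairs summed (0.018), RLE factors (0.00069), library size only (0.026), no filter (0.0084), the CPM filter (0.0087), DESeq2 (0.00064, and 0.02 with pairs summed), the length trend removed (0.034) and 1 library kept of each pair (0.031 and 0.0059), and lay between -0.077 and 0.077 over left-out libraries. TECR turned positive with pairs summed (0.033, and 0.034 by DESeq2), library size only (0.027) and 1 library kept of each pair (0.035 and 0.032), and lay between -0.091 and 0.081 over left-out libraries. The mean difference of log2 CPM changed sign between 10 samples and 12 libraries for SCD, HSD17B12, HACD3 and TECR, with exact permutation p over the libraries of 0.959, 0.569, 0.959 and 0.959. The causes were not tested. FADS2, FADS1 and ELOVL5 stayed lower in MET under every setting listed here. With 5 samples per diet, the interval of SCD (-1.36 to 0.92) leaves room for changes of either sign.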

Other observations

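The 5 genes whose level followed FADS2 most closely among the 10 samples, with diet means removed and among 8196 genes with a mean of at least 10 CPM, were an unnamed gene (Entrez 100336931, r = 0.923), AIF1 (0.898), MVD (0.893), MAPK8 (0.89) and ATP5MG (0.88). AIF1, a marker of macrophages, was called over the 12 libraries in the direction opposite to FADS2, at 61.6 CPM in CON and 86.5 CPM in MET (log2 fold change 0.46, edgeR FDR of 0.0571, and 0.173 over the 10 samples). MVD, an enzyme of cholesterol synthesis, stood at 50 CPM in CON and 48.4 CPM in MET. These r are descriptions over the same libraries, without a test.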
